A study of Mus musculus with 48 samples.

Results

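The cells of aged mice and of young mice were compared at a single time of day, zeitgeber time 20 (ZT20). ZT counts hours from lights on, so by convention ZT20 lies in the dark phase, when mice are active. Of the 48 arrays of the series, the 8 whose labels give this time were used for the comparison itself: 4 of aged mice, 102 to 116 weeks old, and 4 of young mice, 8 weeks old. All 8 come from wild-type female C57B6/J mice. The source is epidermal stem cells (EpSCs), the dividing cells that renew the outer layer of the skin. The other 40 arrays, 4 per age at ZT0, ZT4, ZT8, ZT12 and ZT16, served only to ask which age differences were particular to ZT20. RNA was read on 1-colour Affymetrix arrays, and levels are given on the log2 scale, on which a difference of 1 means a doubling of signal. In adult skin these stem cells sit on the basement membrane, divide, and send daughters upwards to form the barrier. A circadian clock, in which Arntl and Clock activate the Per, Cry and Nr1d genes that later repress them, runs in these cells as in most tissues, and through it both cell division and fuel use vary with the time of day.

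The labelled cell type was checked against its markers. The basal keratins Krt5 and Krt14 were among the brightest, with Krt5 at 12.31 to 12.78 in aged and 12.55 to 12.76 in young cells, and Krt14 at 12.28 to 12.52 in aged and 12.32 to 12.36 in young cells. The suprabasal keratins Krt1 and Krt10 were also bright, Krt1 at 11.58 to 11.67 in aged and 11.64 to 11.96 in young cells. The stem cell surface protein Cd34 of the hair follicle bulge lay below the limit for dim genes, as did Ptprc (all leukocytes), Cd207 (Langerhans cells), Col3a1 (fibroblasts), Cdh5 (endothelium), Dct (melanocytes) and Adipoq (fat cells) by their means over all arrays; Cdh5 ran from 3.49 to 4.12 in aged and from 3.68 to 3.76 in young cells. Other markers of these types were dim but above the limit, with Col1a1 (fibroblasts) at 4.21 to 4.66 in aged and 4.10 to 4.54 in young cells, and Pecam1 (endothelium) at 4.17 to 4.41 in aged and 4.05 to 4.23 in young cells. Summed signals of the marker lists overlapped between the ages for 11 of the 13 cell types. The 12 suprabasal markers summed to 13190 to 14310 in aged and 14590 to 16620 in young cells, and the 11 measured bulge markers to 6222 to 6573 in aged and 7009 to 7306 in young cells, with no overlap. In bulk RNA, fewer cells of a type and less RNA per cell cannot be told apart.

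The 8 arrays correlated with each other at 0.979 to 0.997. Young mice 1 and 3 gave the most alike of the 72 pairs of arrays within groups, with an SD of the log2 difference of 0.173 against a median of 0.297. The labels give each array a replicate number and do not say whether these 2 share RNA or processing. The arrays were kept separate, each called a mouse here, and the main counts below are also given with these 2 averaged as 1 sample. Of 5 technical measures of the arrays (median signal, spike-in controls, GC-rich background probes, and RNA quality from actin and from Gapdh), the unadjusted p of aged against young ran from 0.0571 to 0.343 (exact permutation test, 2-sided, 4 against 4, smallest possible p 0.0286). With 5 measures, 1 or 2 of them at that smallest p could not pass after adjustment, so the test does not show that the arrays were alike. The p-values measure the spread between arrays, which is the spread between mice only if each array is a different mouse.

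Of the genes past the test at ZT20, Cadps2, Zmynd15, Camk1g and Casp1 rose most in aged cells and Slc38a4, Ccr4 and Tesc fell most, and 5 histone genes were among those that fell. A rise or a fall here means aged against young cells at the same hour, not a change over the day. Of 12823 genes tested, 73 were higher in aged cells (0.569%) and 44 lower (0.343%; limma, Benjamini-Hochberg adjusted p under 0.05). A change of at least 1.5-fold was seen in 71 of the 73 and in 35 of the 44, and 30 and 7 of them changed at least 2-fold. All 73 and all 44 separated the 4 aged from the 4 young values without overlap, which 421 genes did upwards (3.28%) and 416 downwards (3.24%) over the whole array. With the replicate number as a block, 132 genes were higher and 86 lower, of which 72 and 42 were among those above. With young mice 1 and 3 averaged as 1 sample, 38 were higher and 11 lower. The counts rested on single arrays: without aged mouse 4 they were 154 and 119, without young mouse 1 45 and 12, without young mouse 2 34 and 12, without young mouse 3 43 and 11, and the count of lower genes was 20 without aged mouse 1 and 25 without young mouse 4.

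**Figure D1:**
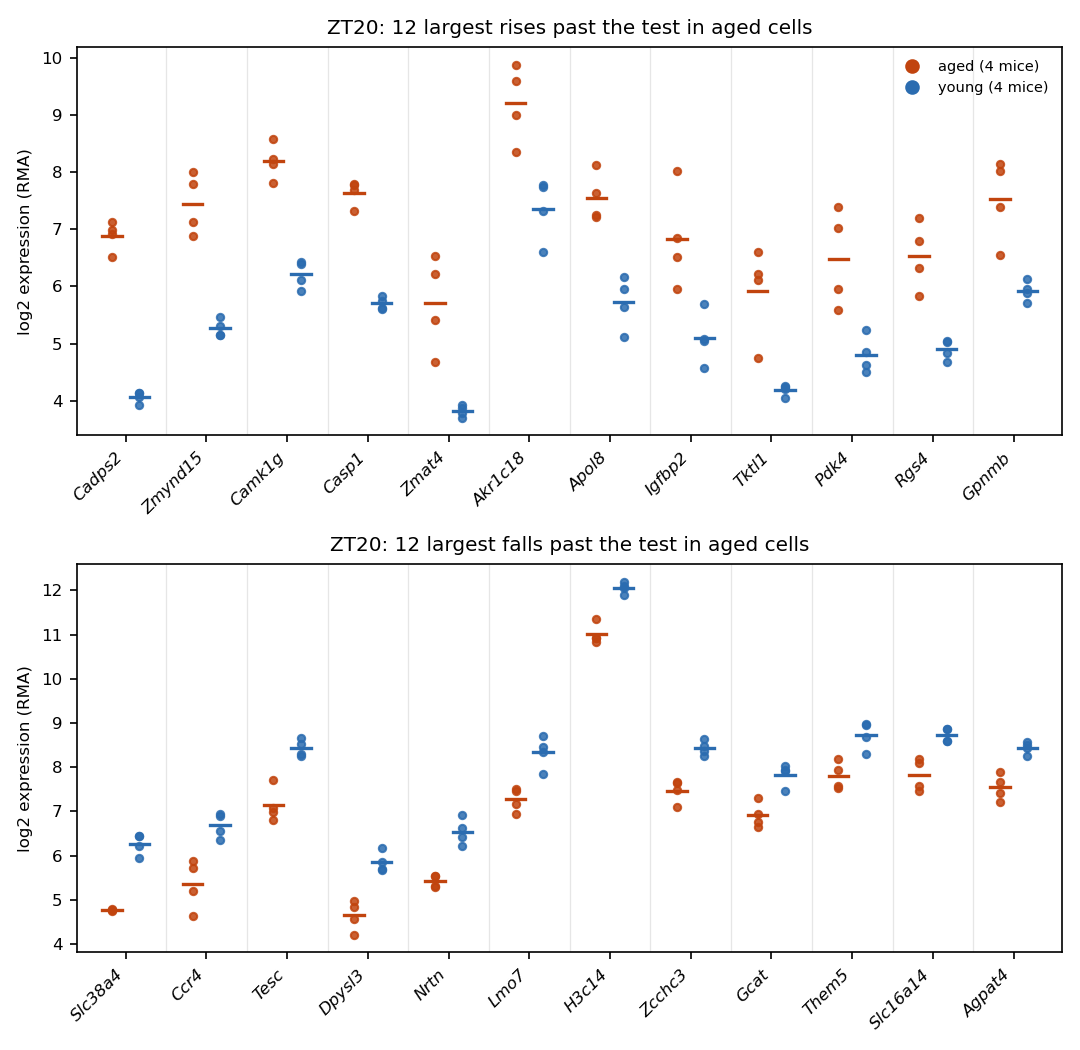
Log2 expression (RMA) of the 12 largest rises (top) and the 12 largest falls (bottom) in aged cells at ZT20, among genes past the adjusted p of 0.05 whose groups do not overlap. Each point is 1 mouse, aged in orange on the left and young in blue on the right of each gene, and bars are means of 4 mice, with the widest gap between means in Cadps2 (2.82).

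The largest rise was that of Cadps2, which primes dense-core vesicles for release (chromosome 6, 23262773 to 23841175 in GRCm38). The 4 aged values were 7.13, 6.51, 6.99 and 6.91, and the 4 young values 4.06, 3.93, 4.14 and 4.14. Every aged value was far above the young ones, which sat close to the limit for dim genes (3.957), and the difference was 2.82 ± 0.13 (SE; 7.05-fold, adjusted p = 6.54e-07, limma). Zmynd15, known in mice as a transcriptional repressor of male germ cells (chromosome 11, 70459433 to 70466204), had 7.13, 7.99, 7.79 and 6.88 in aged against 5.31, 5.15, 5.46 and 5.15 in young cells. Its difference of 2.18 ± 0.21 (adjusted p = 0.000539) had an aged SD of 0.53 and a young SD of 0.15. Both genes had like differences at other hours: the mean over the other 5 times was 2.82 for Cadps2 and 2.44 for Zmynd15.

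Casp1 and Casp4, caspases of inflammation, were higher in aged cells. Casp1, the protease that matures IL-1beta and IL-18 (chromosome 9, 5298517 to 5307281), had 7.77, 7.69, 7.32 and 7.78 in aged against 5.61, 5.84, 5.74 and 5.62 in young cells. The neighbouring Casp4, which senses lipopolysaccharide inside cells, had 9.80, 9.60, 9.59 and 9.37 in aged against 8.53, 8.31, 8.05 and 7.99 in young cells. Il18, a substrate of Casp1, had 4.31, 4.59, 4.23 and 4.72 in aged against 3.32, 3.23, 3.30 and 3.41 in young cells. The ages did not overlap in any of these 3 genes, and the differences were 1.94 ± 0.12 (adjusted p = 1.08e-05), 1.37 ± 0.14 (adjusted p = 0.000774) and 1.15 ± 0.12 (adjusted p = 0.00093, limma, SE). They were not particular to ZT20. Minus the mean difference of the other times they came to 0.23, -0.26 and -0.33, and none of the 3 passed that test (limma). Il18 was dim, and all 4 of its young values lay below the limit for dim genes. It thus entered the test through the aged arrays, and the size of its difference is uncertain. In the list of stressed keratinocyte and inflammation genes these 3 of 20 measured members were higher (0.569% over all genes) and 0 lower. Il18 counts among the 3 only because of its aged arrays. The list median was 0.07 beside -0.02 over all genes. In other members the ages ran both ways without passing: chosen after its values were seen, the stress keratin Krt6a differed by 1.54 and the barrier protein Sprr1b by -1.66 (adjusted p = 0.0703 and 0.0599, limma). The summed signal of 10 T cell markers was 840.2 to 1386 in aged and 678.5 to 937.3 in young cells, and its part in these differences was not tested; Cd3e, a defining T cell gene, was dim at both ages (3.83 to 4.29 in aged, 3.94 to 4.24 in young cells), and Ptprc was below the limit.

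Among the other large rises, Akr1c18, which inactivates progesterone, had 8.99, 8.35, 9.88 and 9.59 in aged against 7.74, 7.77, 7.32 and 6.60 in young cells, a difference of 1.84 ± 0.32 (adjusted p = 0.0171). Igfbp2, a binding protein of insulin-like growth factors, had 6.52, 5.95, 8.02 and 6.85 in aged against 5.70, 5.08, 5.04 and 4.57 in young cells, a difference of 1.74 ± 0.36 (adjusted p = 0.0412). Igfbp2 was the only one of 10 basal keratinocyte genes past the test upwards (0.569% over all genes), and 0 passed downwards (limma), and its groups came close to overlapping. Rgs4, which shortens signals of G proteins, differed by 1.63 ± 0.23 (adjusted p = 0.00664), and its other probe sets also gave higher aged signals (2.32 and 0.79). Gpnmb, a glycoprotein of lysosomes and melanosomes, differed by 1.61 ± 0.28 (adjusted p = 0.017) and the transketolase-like Tktl1 by 1.73 ± 0.30 (adjusted p = 0.0172). The zinc finger gene Zmat4 had 5.41, 4.68, 6.53 and 6.21 in aged against 3.88, 3.79, 3.92 and 3.71 in young cells (adjusted p = 0.0143). All 4 young values lay below the limit for dim genes, so Zmat4 entered the test through the aged arrays and the size of its difference is uncertain. With young mice 1 and 3 averaged as 1 sample, Igfbp2, Tktl1 and Gpnmb no longer passed (adjusted p = 0.082, 0.0557 and 0.0509, limma), and Igfbp2 and Tktl1 passed in 4 of the 8 fits that each left out 1 array. The mean difference over the other times was 1.09 for Akr1c18, 1.57 for Igfbp2 and 2.03 for Rgs4. It was 1.43 for Gpnmb, 0.37 for Tktl1 and 1.17 for Zmat4. None of these genes passed against the other times (limma).

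Among the falls, Slc38a4, an importer of neutral amino acids (chromosome 15, 96994816 to 97055956), was almost constant in aged cells. Its aged values were 4.77, 4.77, 4.78 and 4.75, and its young values 6.43, 6.45, 6.21 and 5.94. Each aged value lay below the median signal of its array (4.851 to 4.917). Whether the aged signal sat at a floor of the probe set was not tested, so its constancy and the size of the fall are uncertain. The young mice were all higher by more than 1 log2 unit, and the difference was -1.49 ± 0.12 (SE, adjusted p = 0.000129, limma); a second, dimmer probe set gave -0.41. Nrtn (neurturin), a growth factor of the GDNF family for neurons, had 5.30, 5.30, 5.55 and 5.53 in aged against 6.22, 6.62, 6.93 and 6.42 in young cells, a difference of -1.12 ± 0.15 (adjusted p = 0.00413). Tesc, a calcium-binding protein, had 7.70, 6.99, 7.08 and 6.82 in aged against 8.66, 8.30, 8.26 and 8.51 in young cells, a difference of -1.29 ± 0.18 (adjusted p = 0.00502). Both groups were clearly apart in these genes. Ccr4, a chemokine receptor, differed by -1.33 (adjusted p = 0.0219), Dpysl3, a cytoskeletal regulator known from growing neurons, by -1.20 (adjusted p = 0.00582), and Lmo7, a protein of cell junctions, by -1.07 (adjusted p = 0.0163, limma). A second probe set of Tesc gave only -0.20. The remaining large falls past the test were those of Zcchc3, Gcat, Them5, Slc16a14 and Agpat4, with differences of -0.97 to -0.89 and adjusted p of 0.0078 to 0.0333. Of these, Gcat breaks down threonine in mitochondria and Agpat4 makes phosphatidic acid. Without single arrays, Them5 and Slc16a14 passed in 2 of 8 fits, Gcat and Ccr4 in 4, while Slc38a4, Tesc, Dpysl3, Nrtn and Zcchc3 passed in all 8. After averaging young mice 1 and 3, Ccr4, Lmo7 and Slc16a14 missed the threshold (adjusted p = 0.051, 0.0602 and 0.0602, limma). The mean difference over the other times was -1.14 for Slc38a4, -1.16 for Nrtn and -0.24 for Tesc. It was -0.58 for Ccr4, -0.40 for Dpysl3 and -0.25 for Lmo7, and -0.64 (Zcchc3) to -0.12 (Gcat) in the remaining falls. None of these genes passed against the other times (limma).

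Of the histone genes, 5 were lower in aged than in young cells at ZT20. These proteins package DNA, and most of their genes are transcribed as DNA is copied. The group was put together after its values were seen, and probes of near-identical histone genes can share signal, so a value may belong to several genes. Of 26 histone genes measured, 5 were lower and 0 higher past the test, beside 0.343% lower over all genes. Against the other times 0 of these 5 passed (limma, adjusted p from 0.133 for H3c14 to 0.636 for H2ax). Of all 26, 1 passed below the other times, H1f2, which is described further on (adjusted p = 0.0368, limma). The age difference was also negative at each of the other 5 times in H3c14 (-0.28 to -0.52), H3c4 (-0.17 to -0.34), H2bu2 (-0.14 to -0.42) and H2ax (-0.06 to -0.30), and ran from -0.61 to 0.76 in H1f4. Each age was also set against its own other hours, in the order H3c14, H3c4, H2bu2, H1f4 and H2ax. The aged levels at ZT20 differed by 0.08, 0.19, 0.13, -0.04 and 0.21 (limma, adjusted p from 0.708 to 0.979). The young levels differed by 0.70, 0.65, 0.59, 0.61 and 0.53 (limma, adjusted p = 0.000751, 0.00543, 0.0101, 0.0503 and 0.0151). In 23 of the 26 the aged mean was the lower one, 11 separated the ages downwards (3.24% over all genes), and the median was -0.24 at ZT20 beside -0.05 over the other times. H3c14, which encodes histone H3, was the brightest of the 5, with 11.35, 10.93, 10.93 and 10.84 in aged against 11.89, 12.05, 12.10 and 12.20 in young cells. It fell by 1.04 on the log2 scale (SE 0.13, adjusted p = 0.00291) and passed without each of the 8 arrays, while a second probe set gave -0.26. H3c4, another histone H3 gene, had 10.02, 9.86, 10.02 and 9.76 in aged against 10.71, 10.42, 10.95 and 10.49 in young cells, H2bu2 for histone H2B had 6.16, 6.31, 6.41 and 6.50 against 7.21, 6.88, 7.38 and 6.89, and the linker histone gene H1f4 had 9.89, 10.05, 10.02 and 10.06 against 10.39, 10.58, 10.58 and 10.53. No aged mouse reached the lowest young mouse in any of these genes. The differences were -0.73 for H3c4, -0.74 for H2bu2, -0.51 for H1f4 and -0.51 for H2ax, the variant marked at DNA breaks (limma, adjusted p = 0.0218, 0.0232, 0.0319 and 0.0406). With young mice 1 and 3 averaged as 1 sample, 1 of the 5 passed, H3c14; H1f4 and H2ax each passed without 1 of the 8 arrays only. Without single arrays the count of histone genes called lower ran between 1 (without young mouse 1 or 3) and 6 (without aged mouse 4), with 2 without aged mouse 1 and 3 without each of the other 4.

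The promoters of the histone genes that fell are shown because these genes passed at ZT20. The sequences are those of RefSeq for GRCm38.p6, from 250 bases before to 50 after the transcript start that the promoter table uses; 6 of 7 genes looked up here and below had an entry, and H2ax is named only. Capitals mark CCAAT and TATAAA on either strand, so that ATTGG and TTTATA are the same motifs on the other strand; no match of one overlaps a match of the other. H3c14 lies at chr3:96246435-96246734 (plus strand), H3c4 at chr13:23575513-23575812 (plus), H2bu2 at chr11:58948661-58948960 (plus) and H1f4 at chr13:23622509-23622808 (minus).
H3c14: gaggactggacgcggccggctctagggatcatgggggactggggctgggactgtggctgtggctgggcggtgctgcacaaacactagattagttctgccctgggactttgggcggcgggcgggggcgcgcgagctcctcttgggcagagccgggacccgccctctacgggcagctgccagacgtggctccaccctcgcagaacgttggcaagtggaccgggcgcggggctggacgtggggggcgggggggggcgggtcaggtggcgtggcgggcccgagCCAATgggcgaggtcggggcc
H3c4: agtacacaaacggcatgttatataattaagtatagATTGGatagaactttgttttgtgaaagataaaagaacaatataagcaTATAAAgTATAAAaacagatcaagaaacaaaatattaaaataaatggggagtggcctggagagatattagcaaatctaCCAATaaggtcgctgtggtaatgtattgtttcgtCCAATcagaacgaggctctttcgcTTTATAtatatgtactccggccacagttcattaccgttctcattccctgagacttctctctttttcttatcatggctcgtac
H2bu2: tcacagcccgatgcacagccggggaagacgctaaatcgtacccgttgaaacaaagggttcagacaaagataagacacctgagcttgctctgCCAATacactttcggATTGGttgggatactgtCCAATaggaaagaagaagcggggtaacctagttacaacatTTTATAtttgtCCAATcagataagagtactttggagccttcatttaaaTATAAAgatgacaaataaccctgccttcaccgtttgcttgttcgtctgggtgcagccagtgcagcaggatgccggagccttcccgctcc
H1f4: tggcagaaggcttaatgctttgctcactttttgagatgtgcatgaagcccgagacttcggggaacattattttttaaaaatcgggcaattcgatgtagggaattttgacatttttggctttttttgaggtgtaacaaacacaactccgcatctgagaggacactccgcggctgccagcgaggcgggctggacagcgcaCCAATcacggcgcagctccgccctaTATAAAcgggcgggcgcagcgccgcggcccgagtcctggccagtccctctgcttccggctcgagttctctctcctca
CCAAT occurred 1, 3, 4 and 1 times in H3c14, H3c4, H2bu2 and H1f4, and TATAAA 0, 3, 2 and 1 times. Of all 32851 promoters in the table, 37.4% hold CCAAT and 13.6% hold TATAAA at least once. A match is a description of the letters in this window and not a binding site.

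Of the 27 measured genes of the G2 and mitosis list, 1 was lower past the test (0.343% over all genes) and 0 higher, 9 were lower at an unadjusted p under 0.05 (6.65% over all genes) and 25 had the lower mean in aged cells, with a median of -0.22. At the other times the median of the same genes was 0.11. Ube2c, the E2 enzyme of the anaphase-promoting complex, had 7.22, 7.37, 7.40 and 7.15 in aged against 7.70, 7.88, 7.75 and 8.10 in young cells, with no overlap and a difference of -0.57 (adjusted p = 0.0412, limma). It missed the threshold with the replicate block (adjusted p = 0.0517), with young mice 1 and 3 averaged (adjusted p = 0.085) and without each of the 8 arrays in turn. Its young level at ZT20 differed from the other young hours by 0.69 (adjusted p = 0.0317, limma). Its aged level differed from the other aged hours by 0.0068 (adjusted p = 0.996, limma). Kif11, a motor of the spindle, differed by -0.48 and the cyclin Ccna2 by -0.39 without passing (adjusted p = 0.229 and 0.219). Cdkn3, a phosphatase of cyclin-dependent kinases that was named after its values were seen, had 5.99, 6.47, 6.22 and 6.00 in aged against 6.69, 7.26, 6.77 and 7.12 in young cells and fell by 0.79 on the log2 scale (adjusted p = 0.0316, or 0.051 with young mice 1 and 3 averaged). Of 28 S phase and replication genes, 0 passed in either direction and the median was 0.04; at an unadjusted p under 0.05, 1 was higher (Cdc6, 0.47) and 1 lower (Pola1, -0.34). The test of the mitotic genes against the other times called 0 of 27, and 5 were below at an unadjusted p under 0.05 (5.01% over all genes).

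The promoters of Ube2c (chr2:164769679-164769978, plus strand) and Cdkn3 (chr14:46760291-46760590, plus strand; its transcript start lies 80 bases downstream of the start in the gene table) are shown as the gene of the list and the gene outside it that passed; capitals mark CCAAT and TTTGAA, the letters of the cell cycle homology region, on either strand.
Ube2c: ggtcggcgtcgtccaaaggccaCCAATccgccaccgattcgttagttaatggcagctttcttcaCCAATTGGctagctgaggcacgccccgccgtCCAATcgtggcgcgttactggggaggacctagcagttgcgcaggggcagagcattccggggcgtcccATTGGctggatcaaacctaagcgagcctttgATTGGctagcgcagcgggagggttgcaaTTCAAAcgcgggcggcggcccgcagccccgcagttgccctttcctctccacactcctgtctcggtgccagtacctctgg
Cdkn3: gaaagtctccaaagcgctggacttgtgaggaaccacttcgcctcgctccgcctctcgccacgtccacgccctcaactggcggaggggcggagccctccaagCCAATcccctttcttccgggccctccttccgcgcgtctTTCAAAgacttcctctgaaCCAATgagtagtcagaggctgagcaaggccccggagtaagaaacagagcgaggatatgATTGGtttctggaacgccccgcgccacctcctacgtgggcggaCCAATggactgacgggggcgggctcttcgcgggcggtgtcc
CCAAT occurred 6 times in Ube2c, where 2 matches on opposite strands overlap in CCAATTGG, and 4 times in Cdkn3, and TTTGAA occurred 1 time in each. TTTGAA is held by 17.9% of all promoters in the table.

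**Figure D2:**
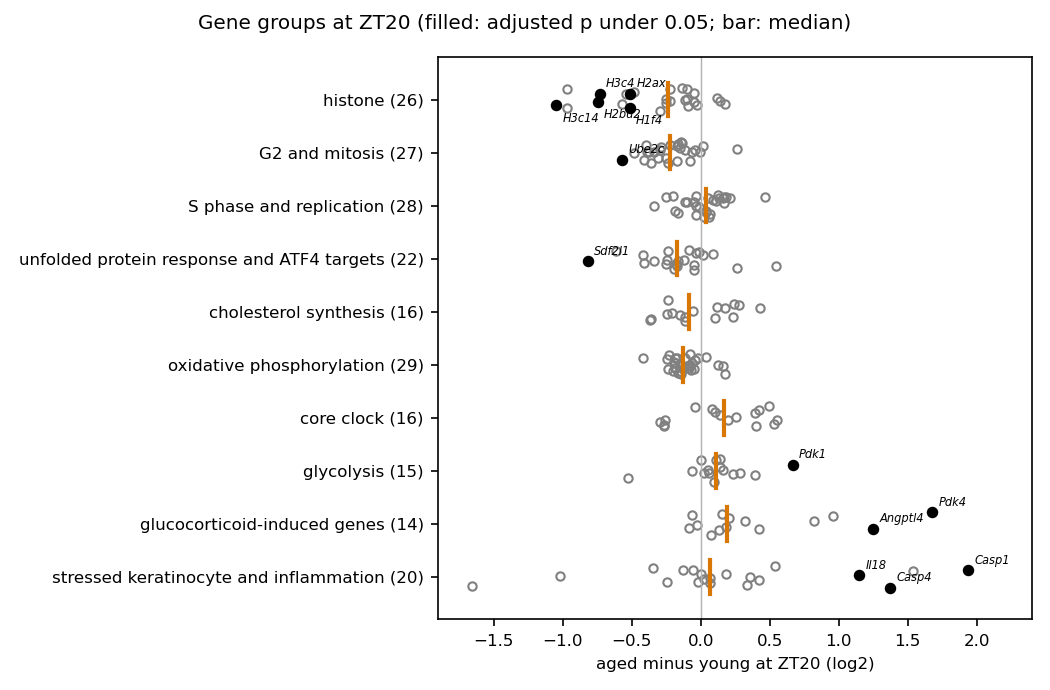
Aged minus young log2 differences at ZT20 (horizontal axis) of the members of 10 gene groups, with the number of genes measured in brackets. Filled points passed an adjusted p of 0.05 and orange bars are group medians, from -0.24 for the histone genes to 0.19 for the glucocorticoid-induced genes.

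Angptl4 and Pdk4, both regulators of fuel use, were higher in aged than in young cells at ZT20. Angptl4, a secreted inhibitor of lipoprotein lipase (chromosome 17, 33774900 to 33781575), had 8.86, 8.86, 9.30 and 9.02 in aged against 8.13, 7.12, 7.91 and 7.90 in young cells. Pdk4, a kinase that shuts off pyruvate dehydrogenase (chromosome 6, 5483351 to 5496278), had 5.95, 7.38, 7.01 and 5.60 in aged against 5.24, 4.62, 4.86 and 4.51 in young cells. Both were higher in all 4 aged mice, by 1.25 ± 0.19 (adjusted p = 0.0108) and by 1.68 ± 0.33 (adjusted p = 0.0333, limma, SE); the aged Pdk4 values spread over a wide range. Angptl4 passed without each of the 8 arrays, Pdk4 in 2 of 8 such fits and not with young mice 1 and 3 averaged (adjusted p = 0.0761). Cpt1a, which brings fatty acids into mitochondria, had 8.89, 8.99, 9.33 and 9.21 in aged against 8.53, 7.85, 8.25 and 8.52 in young cells, and Eci2, an enzyme for oxidising unsaturated fatty acids, had 8.51, 8.85, 8.59 and 8.69 against 7.94, 7.97, 8.04 and 8.01. They differed by 0.82 ± 0.16 (adjusted p = 0.0333) and 0.67 ± 0.11 (adjusted p = 0.0112). Cpt1a and Eci2 were named after their values were seen and form no list. Cpt1a missed the threshold with young mice 1 and 3 averaged (adjusted p = 0.0761) and passed in 4 of 8 fits without 1 array.

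Angptl4 and Pdk4 also stand in the list of glucocorticoid-induced genes. Of its 14 measured members these 2 were higher (0.569% over all genes) and 0 lower, 5 were higher at an unadjusted p under 0.05 (5.63% over all genes), and the median was 0.19. The other 3 were Tgm2 (0.96, adjusted p = 0.139, and 0.0244 with the replicate block), Tsc22d3 (0.82, adjusted p = 0.387) and Per1 (0.42, adjusted p = 0.147). Fkbp5 and Klf9, targets of the receptor in many tissues that were picked after their values were seen, differed by 0.15 and 0.07 (adjusted p = 0.932 and 0.889). In glycolysis, 1 of 15 genes was higher, beside 0.569% over all genes: Pdk1, another kinase of pyruvate dehydrogenase, had 9.12, 9.35, 9.06 and 9.23 in aged against 8.42, 8.26, 8.54 and 8.87 in young cells, a difference of 0.67 ± 0.14 (adjusted p = 0.0406). It did not pass with young mice 1 and 3 averaged (adjusted p = 0.127). Hexokinase Hk2 had the opposite sign, at -0.53 (adjusted p = 0.123), and 0 of 29 genes of oxidative phosphorylation passed, with a median of -0.12.

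Genes of differentiation and protein folding passed in single members. Of 11 suprabasal genes, 1 was higher (0.569% over all genes) and 1 lower (0.343%). Tgm3, a transglutaminase of the cornified envelope, was higher (8.61, 9.39, 9.03 and 8.72 in aged against 8.04, 7.62, 8.14 and 8.23 in young cells; adjusted p = 0.0316), and Krtdap, a secreted protein of differentiating keratinocytes, was lower (9.59, 9.28, 9.57 and 9.31 in aged against 10.06, 9.90, 9.93 and 10.10 in young cells; adjusted p = 0.0382). The ages did not overlap in either gene, and the summed suprabasal signal was lower in aged cells as given above; its part in the other differences was not tested. Of 7 upper follicle and sebaceous genes 1 was higher (0.569% over all genes), Far2, which makes fatty alcohols (1.17 ± 0.22, adjusted p = 0.0316). Of 22 unfolded protein response and ATF4 genes, 1 was lower (0.343% over all genes), the chaperone partner Sdf2l1, at 7.14, 7.33, 6.95 and 7.57 in aged against 8.14, 8.34, 7.88 and 7.91 in young cells (adjusted p = 0.0247). Against the other hours of the same age, Sdf2l1 at ZT20 stood at 0.88 in young cells (adjusted p = 0.00185, limma). In aged cells it stood at 0.08 (adjusted p = 0.952, limma). The median of this list was -0.17, and 6 members were lower at an unadjusted p under 0.05 (6.65% over all genes). Herpud1, of the same list, differed the other way (0.55, adjusted p = 0.127). Tgm3, Krtdap, Far2 and Sdf2l1 missed the threshold with young mice 1 and 3 averaged (adjusted p = 0.085, 0.11, 0.0663 and 0.0612, limma).

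The core clock was measured in 16 genes, and 0 passed at ZT20 in either direction (limma), while 4 were higher (5.63% over all genes) and 1 lower (6.65%) at an unadjusted p under 0.05. Per2, a repressor of the clock, had 6.75, 6.87, 6.62 and 6.71 in aged against 6.28, 5.78, 6.33 and 6.34 in young cells (0.56 ± 0.14, adjusted p = 0.0851). Nr1d2, a repressor of Arntl, had 7.68, 7.52, 7.40 and 7.83 in aged against 7.16, 6.83, 7.30 and 7.01 in young cells (0.53 ± 0.13, adjusted p = 0.0901). Per1 had 9.55, 9.33, 9.18 and 9.59 in aged against 8.91, 8.91, 9.02 and 9.13 in young cells (0.42 ± 0.12, adjusted p = 0.147). In these 3 genes and in Tef (0.39, adjusted p = 0.23), all 4 aged mice were above all 4 young mice, beside 3.28% of all genes. Per1 and Per2 differed more at ZT4 (0.88 and 1.17), and Nr1d2 was positive at ZT20 only (-0.26 to -0.02 at the other times). Against the other times Per1, Per2, Nr1d2 and Tef did not pass (adjusted p = 0.768, 0.9, 0.0802 and 0.373, limma). Arntl differed by 0.26, Clock by 0.20, Dbp by 0.40, Per3 by 0.50, Rora by 0.14, Hlf by 0.10 and Cry2 by 0.08, and Cry1 by -0.29, Npas2 by -0.26, Nfil3 by -0.26, Bhlhe40 by -0.26 and Ciart by -0.04, none past the test (limma, adjusted p from 0.359 to 0.956). A second probe set of Arntl had the opposite sign (-0.13), and one of Nr1d2 the same sign (0.64). Second probe sets also gave 0.72 for Per2, 0.49 for Tef, 0.35 for Hlf and -0.24 for Npas2. The other probe sets of Per3 gave 0.18 to 0.50, those of Clock -0.13 to 0.20 and those of Rora -0.10 to 0.27. With the mean of all probe sets 2 clock genes, Per2 and Nr1d2, passed upwards, and with the other settings tried 0 did.

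**Figure D3:**
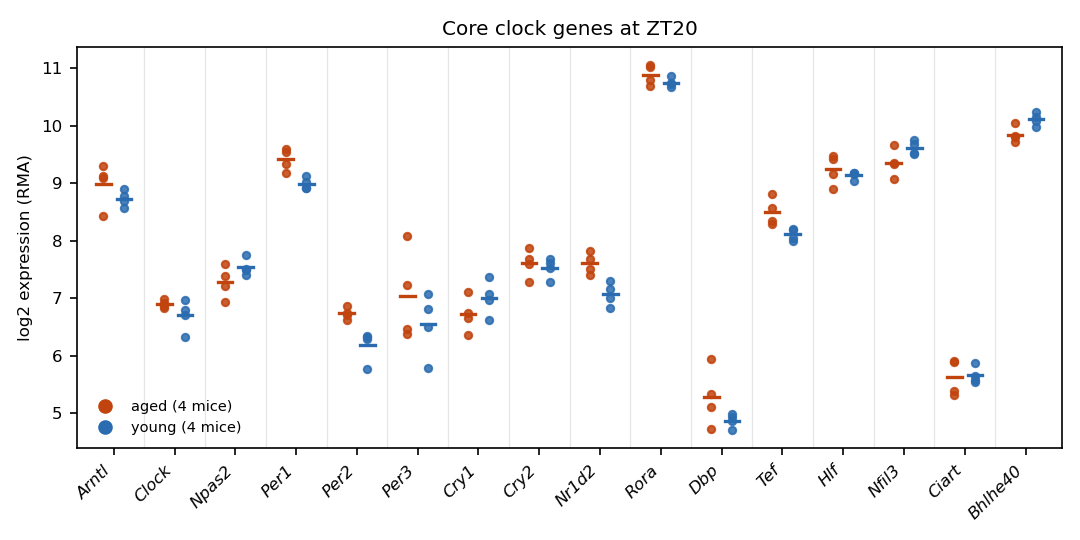
Log2 expression (RMA) of the 16 measured core clock genes at ZT20. Points are single mice, aged in orange on the left and young in blue on the right, and bars are means of 4 mice; Per1, Per2, Nr1d2 and Tef are the genes whose groups do not overlap.

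Most of what differed at ZT20 also leaned the same way at other hours. Of the 73 higher genes, 62 had a positive mean difference over the other 5 times and 44 were positive at each of them; of the 44 lower genes, 36 had a negative mean and 16 were negative at each. The median of the 73 was 0.94 at ZT20 and 0.49 over the other times, and that of the 44 was -0.73 and -0.25; these genes were selected on their ZT20 values. In the same test run at each other hour, 54 of the 73 were also higher at ZT8, which is 74% of them and 18.1% of the 299 genes called there (2.33% of all). The number was 34 at ZT4 (46.6%, and 7.54% of 451, which are 3.52% of all genes) and 28 at ZT16 (38.4%, and 8.14% of 344, which are 2.68% of all). It was 15 at ZT12 (20.5%, and 50% of 30, which are 0.234% of all) and 13 at ZT0 (17.8%, and 26% of 50, which are 0.39% of all). Of the 44 lower genes, 11 were also lower at ZT4 (25%, and 2.02% of 544, which are 4.24% of all genes), 10 at ZT8 (22.7%, and 14.1% of 71, which are 0.554% of all) and 10 at ZT16 (22.7%, and 3.29% of 304, which are 2.37% of all). The number was 2 at ZT12 (4.55%, and 13.3% of 15) and 0 at ZT0, where 15 genes were called as well (0.117% of all at each). At no other hour were 9 of the 73 and 27 of the 44 called, which by itself does not show that they differ between hours.

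The difference itself was tested by setting the age difference at ZT20 against the mean age difference of the other 5 times. This called 15 genes above (0.117%) and 7 below (0.0546%; limma on all 48 arrays), and 494 (3.85%) and 643 (5.01%) at an unadjusted p under 0.05. Of the 15, 10 were among the 73 that rose at ZT20, and of the 7, 2 were among the 44 that fell. In 18 of the 22 the age difference at ZT20 had the opposite sign to the mean of the other times. Selection by this contrast favours such a reversal. With young mice 1 and 3 averaged the counts were 7 and 3, all among the 22. Single arrays moved the counts. Of the ZT20 arrays, leaving out aged mouse 2 gave 8 above, aged mouse 4 24 above, young mouse 1 8 and 3, young mouse 2 5 and 4, young mouse 3 9 and 4, and young mouse 4 23 and 13. Of the other arrays, leaving out aged mouse 4 of ZT0 gave 33 and 24, aged mouse 1 of ZT12 28 and 11, aged mouse 3 of ZT8 9 above, and young mouse 1 of ZT8 11 below. Which hours entered the mean changed the counts: they were 71 and 32 without ZT8 and 8 and 3 without ZT0, and 13 were below without ZT12. Against ZT8 alone they were 4 (0.0312%) and 1 (0.0078%). Against the other single hours, a comparison chosen after seeing the data, they were 90 (0.702%) and 77 (0.6%) for ZT0, 65 (0.507%) and 40 (0.312%) for ZT4, 8 (0.0624%) and 0 for ZT12, and 19 (0.148%) and 7 (0.0546%) for ZT16. The 0 below ZT12 is limma's count at an adjusted p under 0.05.

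**Figure D4:**
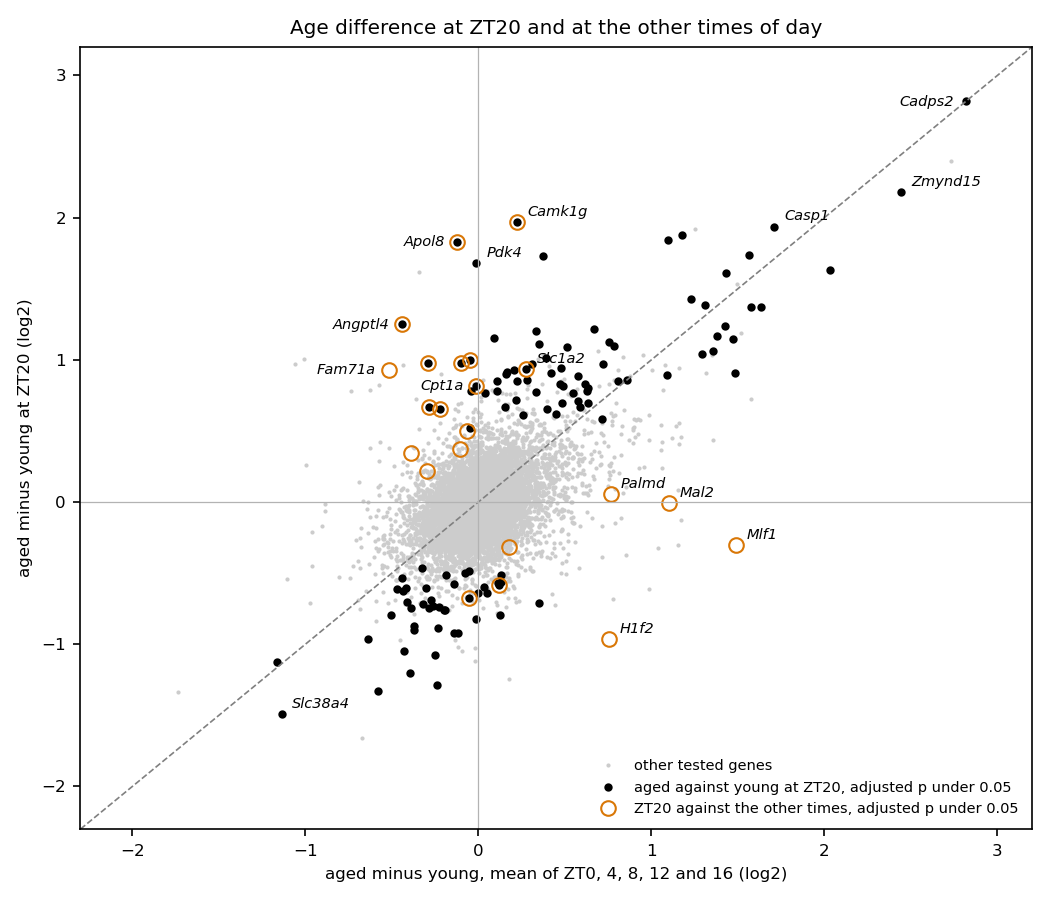
Aged minus young log2 difference of each tested gene at ZT20 (vertical axis) against its mean over the other 5 times (horizontal axis); the dashed line marks equality. Black points are the 117 genes past the test at ZT20 and orange rings the 22 past the test against the other times; Cadps2 lies on the line and Apol8, Camk1g and Angptl4 far above it.

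Angptl4, Eci2 and Cpt1a stood above the other times with the smallest adjusted p, which Polg2 shared. The age difference of Angptl4 was 1.25 at ZT20 and 0.08, -0.04, -0.81, -0.41 and -1.03 at ZT0, ZT4, ZT8, ZT12 and ZT16, so that ZT20 exceeded the others by 1.69 ± 0.30 (SE, adjusted p = 0.00498, limma). Aged cells averaged 8.58 ± 0.25 at ZT16 and 9.01 ± 0.21 at ZT20, while young cells averaged 9.61 ± 0.34 at ZT16 and 7.76 ± 0.44 at ZT20 (SD, n = 4 each). The young level at ZT20 differed from the mean of its other times by -0.82 (adjusted p = 0.0275), and the aged level by 0.87 (adjusted p = 0.0677, limma). Eci2 ran alike, with 0.67 at ZT20 and -0.10, -0.06, -0.36, -0.43 and -0.46 at the others (0.95 ± 0.16, adjusted p = 0.00498). Cpt1a was nearly equal in the ages at the 5 other times, between -0.08 and 0.07, and 0.82 apart at ZT20 (0.83 ± 0.15, adjusted p = 0.00498). Against single hours, Cpt1a passed at 4 of 5 (not ZT8), Eci2 at 4 (not ZT4) and Angptl4 at 2 (ZT8 and ZT16), and all 3 passed in the pooled test without each of the 48 arrays. Pdk4 missed the threshold there (1.69 ± 0.39, adjusted p = 0.0564). Its age differences at ZT0, ZT4, ZT8, ZT12 and ZT16 were 0.96, 1.36, -0.68, -0.39 and -1.31, so that those at ZT0 and ZT4 had the sign of ZT20. The young Pdk4 level at ZT20 differed from the mean of its other times by -1.37 (adjusted p = 0.0043, limma). The aged level differed by 0.32 (adjusted p = 0.835, limma).

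Apol8, Camk1g and Polg2 rose at ZT20 and at ZT8 alike. Apol8, of the apolipoprotein L family (chromosome 15, 77745109 to 77757062), had 7.22, 7.24, 8.12 and 7.63 in aged against 5.95, 5.12, 6.17 and 5.64 in young cells at ZT20, a difference of 1.83 ± 0.23 (adjusted p = 0.00362). At ZT8 its difference was 1.97, and at ZT0 and ZT4 it was -1.08 and -1.57. Camk1g, a calcium and calmodulin-dependent kinase (chromosome 1, 193346346 to 193370355), had 8.13, 8.58, 8.23 and 7.81 in aged against 6.40, 6.11, 6.44 and 5.93 in young cells at ZT20 (1.97 ± 0.17, adjusted p = 0.000129), and its differences were 1.82 at ZT8 and -1.10 at ZT4. Both passed against the pooled other times, by 1.95 ± 0.39 (adjusted p = 0.0127) and 1.75 ± 0.33 (adjusted p = 0.00737). Polg2, the accessory subunit of the mitochondrial DNA polymerase, Fam71a and Ppp1r10, which directs protein phosphatase PP1 in the nucleus, had ZT20 differences of 0.98, 0.93 and 1.00 and ZT8 differences of 1.18, 1.10 and 1.11. Fam71a did not pass at ZT20 itself (adjusted p = 0.0846), and Polg2 did (adjusted p = 0.0398) but not with young mice 1 and 3 averaged (adjusted p = 0.0869, limma). Camk1g, Apol8, Polg2, Fam71a, Ppp1r10 and the glutamate transporter gene Slc1a2 were also called higher in the test at ZT8, and Slc1a2 in that at ZT16. Ppp1r10 and Slc1a2 were named after their values were seen. Under the averaged pair, Fam71a and Slc1a2 did not pass against the pooled times (adjusted p = 0.0818 for each, limma). Against ZT8 alone, Angptl4 and Eci2 passed of the 15 and 0 of the 7, and 0 of the 22 passed against each of the 5 hours.

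In the remaining genes above, ZT20 had the highest age difference of the 6 times. Nfe2l3, a transcription factor of the cap'n'collar family, had 7.32, 7.75, 7.06 and 7.82 in aged against 6.52, 6.27, 6.65 and 6.59 in young cells (0.98 ± 0.17, adjusted p = 0.0162) and passed against the other times by 1.08 ± 0.24 (adjusted p = 0.0386). Under the averaged pair it passed neither at ZT20 (adjusted p = 0.0504) nor against the other times (adjusted p = 0.0878, limma). Its 2 dimmer probe sets gave 0.47 and -0.18 at ZT20. Outside the rule for named genes and named after their values were seen, Tor3a, Lifr (the receptor of leukaemia inhibitory factor), Adarb1 (an RNA-editing enzyme), Dll1 (a Notch ligand) and Tns4 (of the tensin family) were above by 0.87, 0.73, 0.56, 0.52 and 0.48. With the averaged pair these 5 missed the threshold (adjusted p from 0.0557 for Tor3a to 0.106 for Dll1, limma). Of these 5, Tor3a alone also passed at ZT20 itself (0.65, adjusted p = 0.0319). Against the other times, the other probe sets gave 0.16 and 0.07 for Adarb1, 0.39 and 0.08 for Tor3a, and 0.70 and 0.77 for Lifr. The Adarb1 result thus rests on 1 probe set. In all 15 genes the young level at ZT20 lay below the mean of the young other times, and in 14 the aged level lay above its own. Tns4 was the exception, at -0.01 in aged cells. The contrast that selected these genes is the aged departure from its other times minus the young one, so selection by itself favours these signs.

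Below the other times stood Mlf1, H1f2, Mal2, Palmd, Mul1, Il17rc and Emd. Mlf1, named for myeloid leukaemia (chromosome 3, 67374097 to 67400000), had age differences of 1.86, 2.63, 0.06, 1.07 and 1.83 at ZT0, ZT4, ZT8, ZT12 and ZT16, and of -0.30 at ZT20. Its ZT20 values were 5.34, 5.07, 4.77 and 4.99 in aged and 5.70, 5.12, 5.36 and 5.19 in young cells, which overlap. The difference from the other times was -1.79 ± 0.33 (adjusted p = 0.00624), and the aged level at ZT20 differed from the mean of its other times by -1.33. The linker histone gene H1f2 averaged 8.48 ± 0.63 in aged and 9.44 ± 0.31 in young cells at ZT20, and 10.43 ± 0.24 in aged and 9.38 ± 0.29 in young cells at ZT4 (SD, n = 4 each). Its age differences at ZT0, ZT4, ZT8, ZT12 and ZT16 were 1.97, 1.05, -0.17, 0.0018 and 0.93. Against single hours it passed at ZT0 and ZT4 only. Its ZT20 difference of -0.97 did not pass by itself (adjusted p = 0.127, and 0.0178 with the replicate block), and its contrast with the other times was -1.72 ± 0.38 (adjusted p = 0.0368, limma). Mal2, a membrane protein of vesicle sorting, and Palmd had age differences of 0.38 to 1.64 and of 0.43 to 1.12 at the 5 other times, and of -0.01 and 0.05 at ZT20. The contrast was -1.11 ± 0.23 for Mal2 (adjusted p = 0.0166) and -0.71 ± 0.13 for Palmd (adjusted p = 0.00768). Against the other hours of the same age, Mal2 at ZT20 stood at -0.39 in aged and 0.72 in young cells (adjusted p = 0.475 and 0.00988, limma). Palmd stood at -0.37 in aged and 0.34 in young cells (adjusted p = 0.107 and 0.0447, limma). After averaging young mice 1 and 3, the contrasts of Mal2 and H1f2 no longer passed (adjusted p = 0.0795 and 0.106, limma), and those of Mlf1 and Palmd did (adjusted p = 0.0219 and 0.0191).

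Mul1 and Il17rc fell at ZT20 and differed from the other times. Mul1, a ubiquitin ligase of the mitochondrial outer membrane, had 7.99, 7.83, 8.06 and 8.06 in aged against 8.75, 8.53, 8.51 and 8.50 in young cells (-0.59 ± 0.11, adjusted p = 0.0236). Il17rc, a subunit of the interleukin-17 receptor, had 9.13, 8.67, 9.08 and 9.07 in aged against 9.64, 9.57, 9.66 and 9.78 in young cells (-0.68 ± 0.12, adjusted p = 0.022). The groups did not overlap in either gene. Against the other times they stood at -0.70 ± 0.14 and -0.62 ± 0.12 (adjusted p = 0.0135 for each, limma), and the age differences of Il17rc at those times were between -0.17 and 0.05. Those of Mul1 were 0.66, 0.24, -0.50, 0.19 and 0.0042 at ZT0, ZT4, ZT8, ZT12 and ZT16. Mul1 thus had a like difference at ZT8, and its fall is not particular to ZT20. A dimmer probe set of Il17rc gave 0.05 at ZT20, and a second one of Mul1 gave -0.25, so each fall rests on 1 probe set. Under the averaged pair neither passed at ZT20 (adjusted p = 0.0761 for each, limma), and against the other times Il17rc passed (adjusted p = 0.0471) and Mul1 did not (adjusted p = 0.0557). Emd, for the nuclear envelope protein emerin, was named after its values were seen and stood at -0.49 against the other times (adjusted p = 0.0368, or 0.112 with the averaged pair). In all 7 genes below, ZT20 had the lowest age difference of the 6 times, the young level was above its own other times and the aged level below. Selection by the contrast favours these signs here as well.

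**Figure D5:**
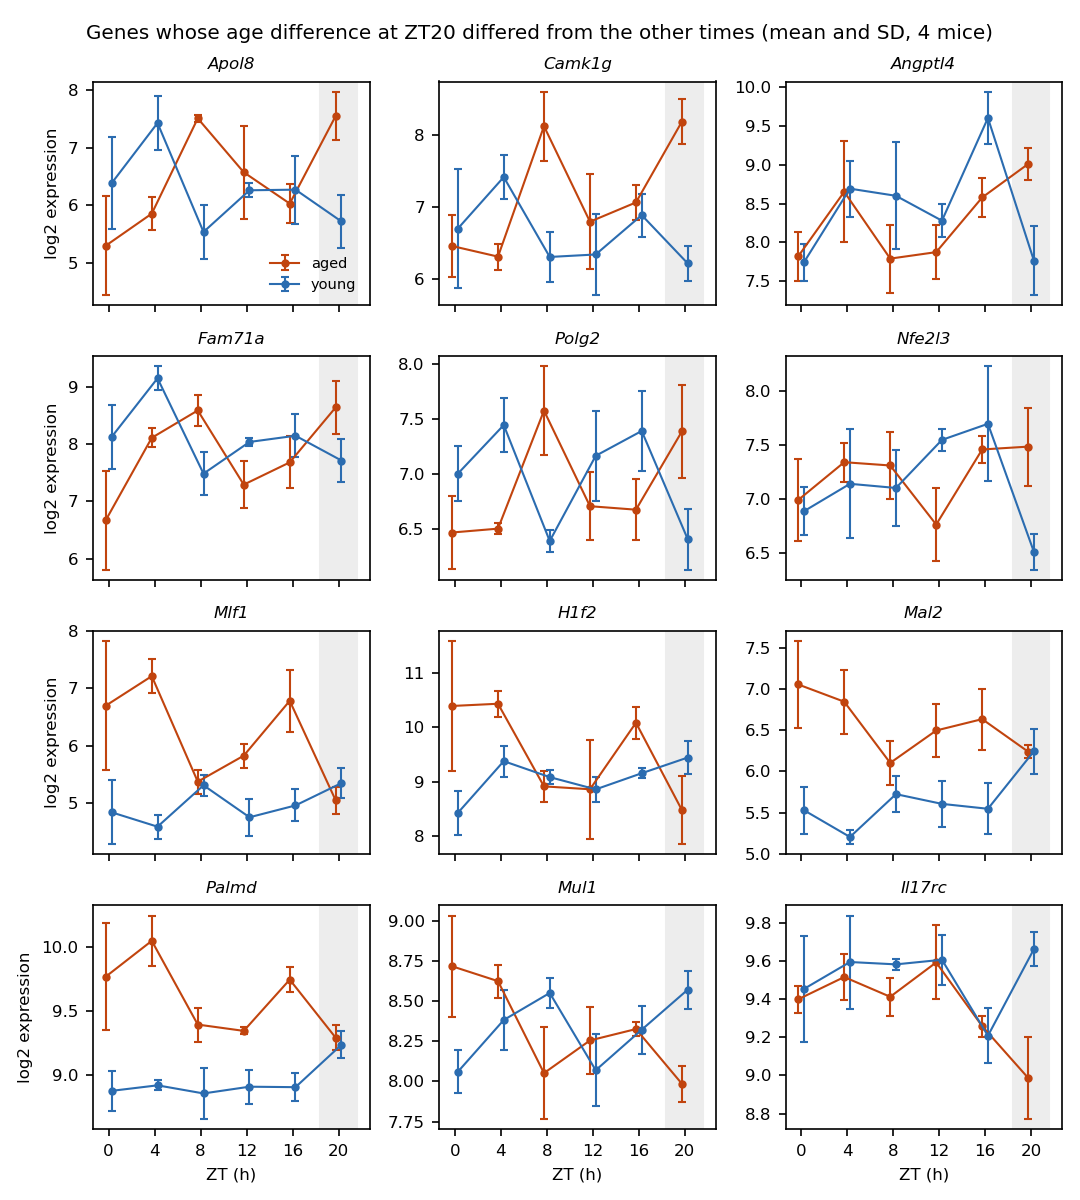
Log2 expression of 12 genes whose age difference at ZT20 differed from that at the other times, by ZT in hours, aged in orange and young in blue (mean and SD of 4 mice; ZT20 shaded). In the first 6 genes the aged mean lies above the young one at ZT20, and Apol8, Camk1g, Fam71a and Polg2 show a like gap at ZT8. In the next 4 the aged mean lies well above the young one at ZT0, ZT4 and ZT16, and at ZT20 it is lower or nearly equal.

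Within each age, ZT20 was set against the mean of the other times in the same fit. This called 16 genes in aged cells (0.125%) and 251 in young cells (1.96%). Of the 22 genes that passed the pooled test against the other times, 7 passed in aged cells and 13 in young cells. These 22 were selected by the contrast of the aged and young departures, so these counts are no separate support. In Eci2, Cpt1a, Lifr, Dll1 and Tns4, which passed in young cells, the young level at ZT20 differed from the other young hours by -0.79, -0.52, -0.58, -0.45 and -0.49. Camk1g, Apol8, Mlf1 and H1f2 passed in aged cells, with ZT20 levels that differed from the other aged hours by 1.24, 1.30, -1.33 and -1.26.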

How the data were processed

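RNA of EpSCs was measured on 48 Affymetrix arrays (1-colour). The deposited log2 values come from RMA run by the authors, per the submitters' processing notes. Its version is not given in the sources used here, nor is the set of arrays it was run on. RMA draws array distributions together, so a shift of all genes would not be seen. Per the labels, RNA was amplified from 25 ng of total RNA in 17 cycles. Precision is limited by the 4 arrays per group.

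Of 45141 probe sets, 28898 have 1 gene symbol, 551 several and 15692 none listed. Each gene was read from its brightest probe set, by mean over the 48 arrays, and genes in the lowest 25% of means (log2 under 3.957) were left out, which leaves 12823 of 17097. Coordinates and symbols follow RefSeq for GRCm38.p6. Aged and young arrays of ZT20 were compared by limma (version 3.58.1, under R 4.3.3), with p-values adjusted by Benjamini-Hochberg over all genes. The test against the other times used all 48 arrays with a mean per age and time. The code was tested on simulated data.

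Same-numbered aged and young arrays of ZT20 deviated together in all 4 pairs (correlation of deviations 0.196, 0.103, 0.119 and 0.232, mean of other pairs -0.05). The labels do not say what a number marks. The main fit did not pair the arrays, so the main p-values take no account of this. The block, which pairs them, was run as an alternative. Members and the 34 gene lists (21 of pathways, 13 of cell types, 589 genes, 475 tested) were chosen with earlier results of these data known, and lists are described by counts and medians only. Named genes are all core clock genes, the 12 largest rises and falls among genes past the adjusted p whose groups do not overlap, the 6 largest differences each way among genes past it against the other times, and up to 3 members of each list by smallest p, with predicted genes and clone names passed over; others are marked. Alternatives were the dim filter, the probe set, 2 normalisations, array weights, the variance model, the block, a 1.5-fold minimum, all 48 arrays in the fit, and leaving out each array or each other time. After seeing the data, 2 were added: averaging young mice 1 and 3, and ZT20 against each other hour alone.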

Additional observations from a re-analysis of the deposited data

Results flagged for a closer look

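Single mice stood apart from the other 3 of their group in 10 of 234 groups of 4 values screened, where chance alone marks about 1 in 20 groups. Aged mouse 2 was high in Lifr (8.981) and low in Il17rc (8.666), and aged mouse 4 was low in Gstm1 (8.542). Young mouse 2 was low in Per2 (5.776), Herpud1 (9.072) and Pparg (4.749), young mouse 3 was high in Cdc6 (4.777), young mouse 1 was high in Mul1 (8.749), and young mouse 4 was high in Lgals7 (11.84) and low in Mgst1 (5.856).

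The age difference at ZT20 departed from that at the other times, by the test of the difference (limma), in 22 genes. It was above by 1.954 in Apol8, 1.749 in Camk1g, 1.69 in Angptl4, 1.447 in Fam71a, 1.269 in Polg2, 1.079 in Nfe2l3, 1.044 in Ppp1r10, 0.9536 in Eci2, 0.8746 in Tor3a, 0.8284 in Cpt1a, 0.731 in Lifr, 0.6598 in Slc1a2, 0.5614 in Adarb1, 0.5175 in Dll1 and 0.4783 in Tns4. It was below in 7 genes, with -1.793 in Mlf1, -1.721 in H1f2, -1.11 in Mal2, -0.7099 in Palmd, -0.7048 in Mul1, -0.6224 in Il17rc and -0.4909 in Emd.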

How the results depend on the processing

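For the 117 genes named at ZT20 and 28 set against the other times, 3726 of 4255 repeats kept direction and side of the threshold, 422 lost the threshold, 90 gained it and 17 changed sign. Main counts are 73 higher and 44 lower at ZT20, and 15 above and 7 below the other times. With array weights they were 150, 113, 91 and 80. The replicate block, in which same-numbered mice are paired, gave 132 higher and 86 lower, lost the call of Ube2c alone among the genes named at ZT20, and left 16 and 7 against the other times. All 48 arrays in the fit gave 127 higher. Young mice 1 and 3 averaged gave 38, 11, 7 and 3. With the lower 50% of genes left out, 24 were above and 11 below; with the mean of probe sets 13 were below, and with cyclic loess 25 were above. Leaving an hour out of the mean gave 8 and 3 without ZT0, 71 and 32 without ZT8, and 13 below without ZT12. Against 1 hour alone, 90 and 77 were called for ZT0, 65 and 40 for ZT4, 4 and 1 for ZT8, and 8 and 0 for ZT12 (limma). Leaving out each array gave 34 to 154 higher, 11 to 119 lower, 5 to 33 above and 3 to 24 below. The causes were not tested. Signs changed against ZT8 alone for Apol8 (-0.14), Fam71a (-0.17), Polg2 (-0.21), Ppp1r10 (-0.11) and Pdk1 (-0.0445), against ZT4 alone for Herpud1 (-0.0454), and at ZT20 for Mal2 (0.0468 with the averaged pair). Without single arrays the ZT20 difference ran from -0.134 to 0.0823 for Mal2, from -0.134 to 0.0669 for Ciart and from -0.0039 to 0.193 for Cry2. The array values give a signal relative to other arrays, and genes near the dim limit, such as Il18 and young Cadps2, have compressed differences.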
